A study of Arabidopsis thaliana with 24 samples.

Results

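The Arabidopsis histone chaperone mutants asf1ab and hira were compared with each other directly after 1 hr of shade, with no wild-type library in the comparison. The samples were chosen by their labels alone: 3 libraries of shaded asf1ab and 3 of shaded hira, 6 of the 24 libraries of the series, with all 33020 loci of the deposited table. Both groups were whole seedlings of 6 days of age, grown in white light and then shaded for 1 hr, with red over far-red light at 0.4. The same pair of mutants kept in white light, with 3 libraries each, gave a comparison that shares no library with the shaded one. The labels name the genotypes asf1ab and hira without the alleles, and give no word on whether replicates are separate cultures, so the p-values reflect the spread among these samples alone, which may be technical. Without a wild type, a difference does not tell which of the mutants departed from it.

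ASF1 and HIRA are histone chaperones, proteins that carry histones H3 and H4 to and from DNA. In plants ASF1A and ASF1B act redundantly and hand H3-H4 to other chaperones, among them the HIRA complex, which deposits the variant H3.3 outside replication, and CAF-1, which deposits H3.1 during replication. Shade lowers the ratio of red to far-red light, inactivates phytochrome B and lets phytochrome-interacting factors raise auxin synthesis and growth genes within the hour.

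The 6 shaded libraries were alike in size: the authors' FPKM (fragments per kilobase of transcript and per unit of library depth) summed to 833445 to 842999 per library, and 18427 to 18731 loci reached an FPKM of 1. Depth, estimated from the steps between low FPKM values, was 13.8 to 15.4 in asf1ab and 15.8 to 17.0 in hira, in units of 1e6 reads. Ribosomal RNA took 1.05 to 1.3% of the summed FPKM in asf1ab and 2.1 to 2.72% in hira. Pearson's r over genes was 0.964 to 0.979 within the groups and 0.954 to 0.967 between them.

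Of the 3 mutated genes, ASF1B alone passed the test between the groups. ASF1B stood at 1.75, 1.78 and 1.92 FPKM in shaded asf1ab and at 9.72, 11.1 and 8.42 in hira. It was 1.92 log2 units lower in asf1ab (log2 difference -1.92, SE 0.11, limma adjusted p = 0.000568), where log2 differences throughout are asf1ab minus hira on log2(FPKM + 1) and a gene is called at an adjusted p below 0.05. ASF1A read 12.1, 15.8 and 16.4 FPKM in asf1ab and 11.7, 11.7 and 10.6 in hira (0.34, SE 0.12, limma adjusted p = 0.130). HIRA read 6.09, 4.92 and 5.35 FPKM in asf1ab and 4.81, 4.76 and 4.13 in hira (0.21, SE 0.10, limma adjusted p = 0.257). Values over a whole gene do not show where an allele interrupts it, so the transcript levels of ASF1A and HIRA do not check their labels.

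Of 18808 genes with a mean of at least 1 FPKM over the 6 libraries, 1312 were called (6.98%). Of these, 420 were higher in asf1ab (2.23%) and 892 higher in hira (4.74%). Counts of list members called in shade are to be read against these shares over all tested genes. The median difference of all tested genes was -0.04. After rescaling by the median of ratios the split was 533 higher in asf1ab against 649 higher in hira, and after quantile normalization 537 against 608. Rescaled to the same nuclear sum without ribosomal RNA, the split widened to 392 against 1127, with 1519 called. At least 1 log2 unit separated the groups for 200 genes (1.06%), 70 higher in asf1ab (0.372%) and 130 higher in hira (0.691%). Those 200 were 102 without hira replicate 3, 123 without hira replicate 1 and 131 without hira replicate 2. All 1312 called genes had groups that did not overlap, as did 6113 of all tested genes (32.5%). The count changed with the libraries used. It was 184 without hira replicate 3, 242 without hira replicate 1, 255 without hira replicate 2, 362 without asf1ab replicate 1, 436 without asf1ab replicate 2 and 1389 without asf1ab replicate 3.

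**Figure D1:**
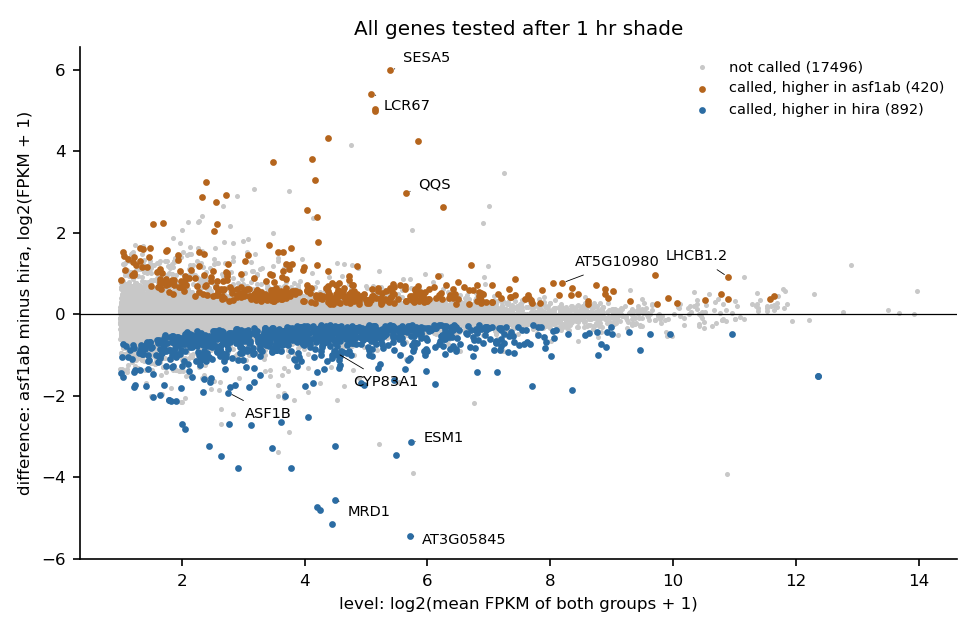
Difference between shaded asf1ab and hira on log2(FPKM + 1) against the level of each tested gene, with called genes coloured by direction. The 420 genes higher in asf1ab reach up to SESA5 at 5.99, and the 892 higher in hira reach down to AT3G05845 at -5.44.

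The largest differences toward asf1ab were in seed storage protein genes, which encode the 2S albumins (SESA) and 12S globulins (CRA1, CRU3) that fill the embryo during seed maturation and are normally shut down as the seedling establishes. The upstream sequences of the 6 storage genes named by their size of difference are shown because seed genes of this kind carry known elements there: the RY element CATGCA, read by B3-domain factors such as ABI3 and FUS3, and ACGT core elements read by bZIP factors. Each is the 200 bases before the RefSeq gene start in TAIR10.1, read 5′ to 3′ on the strand of the gene. Capitals mark CATGCA and ACGTG on either strand, and CACGTG is a match on both.
SESA1 (AT4G27140, chr4:13607129-13607328, plus strand): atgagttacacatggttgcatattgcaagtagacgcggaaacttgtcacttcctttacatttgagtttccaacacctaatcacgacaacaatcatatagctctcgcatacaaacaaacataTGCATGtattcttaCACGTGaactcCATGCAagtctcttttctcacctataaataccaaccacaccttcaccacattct
SESA2 (AT4G27150, chr4:13609141-13609340, plus strand): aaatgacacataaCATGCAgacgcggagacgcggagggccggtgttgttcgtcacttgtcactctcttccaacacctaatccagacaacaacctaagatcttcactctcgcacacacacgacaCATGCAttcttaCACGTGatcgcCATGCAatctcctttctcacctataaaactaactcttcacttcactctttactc
SESA3 (AT4G27160, chr4:13611596-13611795, plus strand): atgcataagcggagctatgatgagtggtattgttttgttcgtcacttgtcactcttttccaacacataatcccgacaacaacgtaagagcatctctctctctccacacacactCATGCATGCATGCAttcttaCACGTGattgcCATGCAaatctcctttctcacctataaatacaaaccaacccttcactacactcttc
SESA5 (AT5G54740, chr5:22239188-22239387, minus strand): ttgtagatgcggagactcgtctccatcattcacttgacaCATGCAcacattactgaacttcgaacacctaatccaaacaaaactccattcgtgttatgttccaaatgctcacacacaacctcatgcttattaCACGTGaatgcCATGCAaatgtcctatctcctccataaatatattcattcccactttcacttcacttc
CRA1 (AT5G44120, chr5:17758337-17758536, minus strand): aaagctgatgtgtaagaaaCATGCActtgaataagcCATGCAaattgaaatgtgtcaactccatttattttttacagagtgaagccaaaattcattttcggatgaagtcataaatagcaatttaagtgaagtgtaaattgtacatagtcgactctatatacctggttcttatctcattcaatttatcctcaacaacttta
CRU3 (AT4G28520, chr4:14087356-14087555, plus strand): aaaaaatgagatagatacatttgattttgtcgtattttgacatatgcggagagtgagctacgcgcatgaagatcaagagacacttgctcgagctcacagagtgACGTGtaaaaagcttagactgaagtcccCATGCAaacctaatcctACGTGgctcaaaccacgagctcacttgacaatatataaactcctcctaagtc
CATGCA was present in all 6 sequences and ACGTG in all but that of CRA1. Of 37897 windows of the same length before annotated genes on chromosomes 1 to 5, 7.07% held CATGCA, 17.7% held ACGTG and 1.35% held both. A match describes these letters only.

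SESA5 measured 124, 61.4 and 60.9 FPKM in shaded asf1ab and 0.55, 0.22 and 0 in hira. This was the largest difference toward asf1ab of any called gene, at 5.99 log2 units (SE 0.30, limma adjusted p = 0.000332). SESA2 measured 72.9, 78.6 and 52.9 FPKM against 1.14, 1.58 and 0.62 (5.04, SE 0.21, limma adjusted p = 0.000129). CRU3 measured 81.8, 79.2 and 42.1 FPKM against 0.93, 2.37 and 0.39 (4.98, SE 0.37, limma adjusted p = 0.00161). For each of the 3 genes every asf1ab library lay far above every hira library, and asf1ab replicate 3 was the lowest of its group. SESA3 read 61.1, 47.5 and 9.16 FPKM in asf1ab against 1.15, 0.41 and 0.25 in hira (4.33, SE 0.65, limma adjusted p = 0.0165). CRA1 read 142, 117 and 66.1 FPKM against 6.47, 5.88 and 2.16 (4.26, SE 0.39, limma adjusted p = 0.00362). SESA1 read 44.8, 42.1 and 8.25 FPKM against 0.52, 1.60 and 0.66 (3.81, SE 0.60, limma adjusted p = 0.0192). SESA1, SESA2 and SESA3 lie next to each other on chromosome 4 and are similar in sequence, so reads may be shared among them.

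Of the 14 tested seed maturation genes, 9 were called higher in asf1ab and none higher in hira, with a list median of 2.68 against -0.04 for all tested genes. The other called members were EM1, a late embryogenesis protein (2.93), and the oil body oleosins OLEO1 (2.22) and OLEO4 (1.16). SESA4, OLEO2, EM6, the regulator ABI3 and PER1 did not pass, with differences from -0.33 to 2.42. Summed over all 18 members in the table, the list gave 312 to 650 FPKM in asf1ab and 55.7 to 96.4 in hira. The call count was 5 without hira replicate 3. In these whole-seedling samples, fewer cells of a type and less RNA per cell cannot be told apart.

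Among the other genes named for the size of their difference toward asf1ab were LCR67 and PAP85. LCR67, a plant defensin gene, measured 51.1, 77.4 and 67.7 FPKM in asf1ab and 0, 0.70 and 1.14 in hira (5.41, SE 0.29, limma adjusted p = 0.000374). PAP85, a vicilin-like seed protein, measured 25.0, 19.5 and 15.2 FPKM against 0.80, 0.64 and 0.24 (3.73, SE 0.21, limma adjusted p = 0.000488). NSP2, a nitrile specifier protein of glucosinolate breakdown, measured 8.85, 8.73 and 6.02 FPKM against 0.16, 0.28 and 0.15 (2.87, SE 0.17, limma adjusted p = 0.000564). These values left no overlap between the groups, as for all 1312 called genes. AT5G50600, a gene of the oil-body steroleosin family with a near-identical copy elsewhere, measured 4.72, 12.3 and 10.9 FPKM against 0.43, 0.29 and 0.59 (2.76, SE 0.31, limma adjusted p = 0.00700).

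QQS, an orphan gene of Arabidopsis that affects starch content, was the steadiest of the large differences. It measured 89.6, 85.9 and 88.9 FPKM in asf1ab and 9.49, 10.9 and 10.4 in hira (2.99, SE 0.07, limma adjusted p = 8.03e-06). The libraries within each group were close together and the groups far apart. The antisense RNA AT3G02115 was higher in asf1ab with widely spread values of 62.7, 20.22 and 12.03 FPKM against 3.81, 0 and 2.90 (3.29, SE 0.74, limma adjusted p = 0.0472). The short U1.8 spliceosomal RNA locus was at 9.29, 7.65 and 8.46 FPKM in asf1ab and was listed at 0 in all 3 hira libraries.

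**Figure D2:**
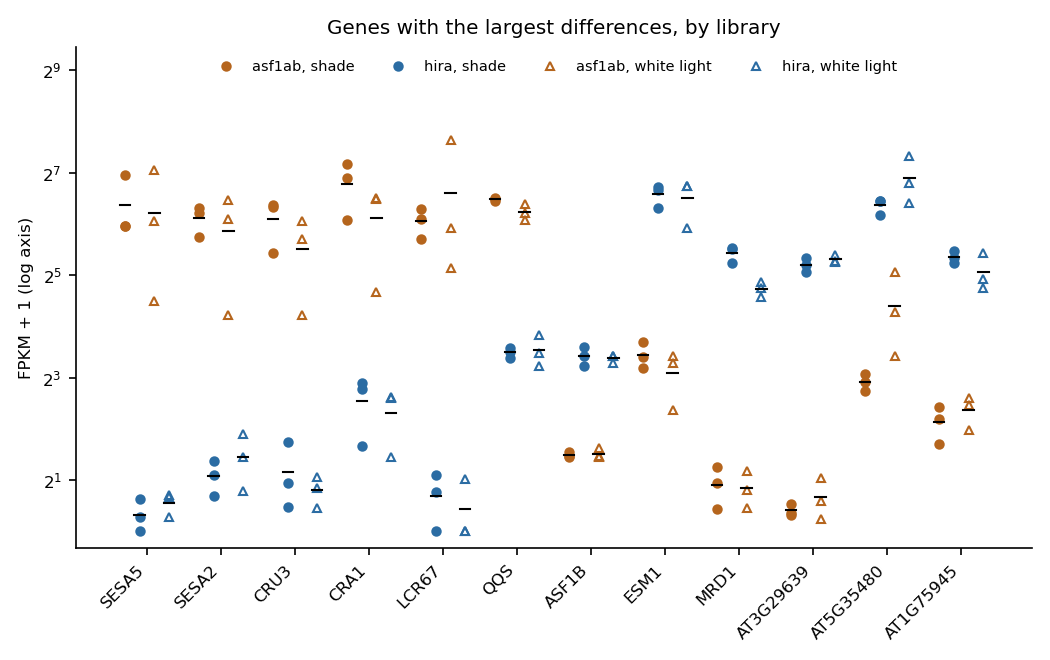
FPKM + 1 on a log axis for genes with large differences and ASF1B, each point 1 library and each bar the mean of 3, with circles for shade and triangles for white light. Storage genes, LCR67 and QQS lie higher in asf1ab and ASF1B, ESM1, MRD1 and the 3 unnamed loci higher in hira, without overlap between the mutants in either light. In shade every called gene was without overlap.

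Histone H3 genes, which encode H3.3 deposited by the HIRA complex, H3.1 deposited by CAF-1 and other variants, were higher in asf1ab. All 10 tested members read higher there, with a median of 0.46, and 6 were called: 2 genes of H3.3 (AT5G10980 and AT4G40040) and 4 of H3.1. AT5G10980 measured 364, 364 and 375 FPKM in asf1ab and 221, 219 and 208 in hira (0.77, SE 0.06, limma adjusted p = 0.00166). AT4G40040 measured 576, 552 and 606 FPKM against 374, 390 and 356 (0.63, SE 0.07, limma adjusted p = 0.00608). Both H3.3 genes were tight within groups and clear of each other between them. The H3.1 gene AT3G27360 measured 62.7, 60.5 and 49.1 FPKM against 40.8, 29.4 and 32.8 (0.73, SE 0.14, limma adjusted p = 0.0321). The remaining called H3.1 genes were AT1G09200 (0.60), AT5G10390 (0.50) and AT5G65360 (0.41).

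The members that did not pass were the third H3.3 gene AT4G40030 (0.20), AT5G10400 (0.38), HTR11 (0.41) and the centromeric variant HTR12 (0.28). AT1G13370, annotated in RefSeq as a histone superfamily protein and outside the list, was named after its values were seen: it averaged 1.88 FPKM in asf1ab and 0.347 in hira (1.09, SE 0.25, limma adjusted p = 0.0472). The listed names HTR6, HTR14 and HTR15 matched no locus by name and are not counted. H3 genes are near-identical in coding sequence, so their separate values are uncertain. The count was 7 without asf1ab replicate 3 and 2 without any one of the other 5 libraries. Among 20 H3-H4 chaperone genes, ASF1B alone was called, and the median was 0.04. Genes of DNA replication and of mitosis had no call among 20 and 19 tested members by limma, no member at an unadjusted p below 0.05, and medians of 0.06 and 0.02. An unadjusted p below 0.05 was found for 4875 of all 18808 tested genes.

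Photosynthesis and immunity lists had 2 and 1 calls, all higher in asf1ab, where 2.23% of all tested genes were called higher. Of 29 tested photosynthesis and chlorophyll genes, 25 read higher in asf1ab (median 0.26) and 2 were called. By limma 18 of the 29 had an unadjusted p below 0.05, against 4875 of all 18808 tested genes. LHCB1.2, an antenna protein of photosystem II with near-identical neighbours, measured 2146, 2127 and 3237 FPKM against 1353, 1277 and 1267 (0.92, SE 0.16, limma adjusted p = 0.0267). GUN4, which activates magnesium chelatase, differed by 0.38 (limma adjusted p = 0.0323). ICS1, the salicylic acid synthesis enzyme, measured 11.5, 9.95 and 15.3 FPKM against 6.73, 5.89 and 6.72 (0.81, SE 0.15, limma adjusted p = 0.0280), the only call among 14 immunity genes.

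In the other direction, the largest differences toward hira were in unnamed loci. AT3G29639 measured 0.28, 0.25 and 0.46 FPKM in asf1ab and 39.4, 32.6 and 35.8 in hira (-4.79, SE 0.11, limma adjusted p = 8.03e-06). AT3G05845, a long non-coding RNA, measured 0, 4.39 and 1.41 FPKM against 104, 97.1 and 101 (-5.44, SE 0.53, limma adjusted p = 0.00448). It overlaps AT3G29631, which measured 1.3, 0 and 0 FPKM against 31.8, 31.4 and 39.7 (-4.73, SE 0.32, limma adjusted p = 0.00114), so reads of the pair cannot be assigned with certainty. The 3 loci lie within a stretch of chromosome 3, chr3:11470374-11480033 in TAIR10.1, and read near 0 in most asf1ab libraries.

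MRD1, a gene first known as down-regulated in the methionine over-accumulating mutant mto1, measured 1.38, 0.92 and 0.35 FPKM in asf1ab and 44.6, 45.1 and 36.5 in hira (-4.55, SE 0.20, limma adjusted p = 0.000221). AT5G35480 measured 6.51, 5.68 and 7.44 FPKM against 86.4, 71.3 and 85.7 (-3.45, SE 0.11, limma adjusted p = 6.97e-05). AT1G75945 measured 4.39, 3.56 and 2.27 FPKM against 39.6, 43.4 and 36.7 (-3.24, SE 0.18, limma adjusted p = 0.000467). These genes had hira libraries well clear of asf1ab. AT1G36675 (-2.82) and the assembled loci MSTRG.13930 (-3.77) and MSTRG.11682 (-3.29), which carry no position or name in the annotation, were also among the largest.

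Among the largest differences, 4 called loci were listed at 0 in all 3 asf1ab libraries. AT2G11405 was at 10.7, 7.01 and 13.6 FPKM in hira, and AT5G14275 at 11.5, 10.7 and 4.58. The microRNA locus MIR8181 was at 17.1, 12.2 and 9.80 FPKM, and the small nucleolar RNA locus AT1G09333 at 49.6, 13.2 and 61.6. These loci are short, so that few reads make large FPKM values, and a 0 may be a failed estimate. Loci at 0 in one group that were not called were often seen in 1 library only: SNOR30 was at 64.8 FPKM in 1 hira library and at 0 in the other 5.

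Aliphatic glucosinolates are the methionine-derived defence compounds of the cabbage family, whose synthesis runs from chain elongation to core structure formation under MYB28 and MYB29. All 15 tested genes of this route read higher in hira, with a median of -0.60, and 8 were called higher in hira. Of the regulators, MYB29 differed by -0.87 and MYB28 by -0.62. BCAT4, which starts chain elongation, measured 14.25, 14.03 and 10.8 FPKM in asf1ab and 34.2, 21.01 and 31.1 in hira (-1.07, SE 0.19, limma adjusted p = 0.0259). CYP83A1, an enzyme of core synthesis, measured 14.5, 14.9 and 14.7 FPKM against 30.7, 28.1 and 28.9 (-0.95, SE 0.06, limma adjusted p = 0.000999). Its libraries were nearly equal within groups. MAM1 (-0.91), CYP79F1 (-0.94), IPMI2 (-0.84) and the transporter BAT5 (-0.57) were the other calls.

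ESM1, a modifier that favours isothiocyanates among glucosinolate breakdown products, measured 8.15, 9.54 and 11.9 FPKM in asf1ab and 105, 78.5 and 101 in hira (-3.14, SE 0.16, limma adjusted p = 0.000332). It was not in the list. Of 15 sulfur starvation genes 2 were called higher in hira, LSU1 (-1.12) and the sulfate transporter SULTR1;2 (-0.61). The count of 8 glucosinolate calls was 1 without hira replicate 1 or 3 or asf1ab replicate 1, 4 without hira replicate 2 and 5 without asf1ab replicate 2.

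Endoplasmic reticulum chaperones fold secreted proteins, and their genes are raised by the unfolded protein response. Of 14 tested, 9 were called higher in hira and none higher in asf1ab, with a median of -0.35. BIP1, an Hsp70 of the endoplasmic reticulum, measured 126, 127 and 92.7 FPKM in asf1ab and 229, 225 and 210 in hira (-0.95, SE 0.13, limma adjusted p = 0.0126). Its close copy BIP2 measured 108, 111 and 85.4 FPKM against 191, 190 and 178 (-0.88, SE 0.11, limma adjusted p = 0.00903). The groups did not overlap for either gene, as for every called gene, and reads of the 2 copies may be shared. UTR3, a nucleotide sugar transporter (-0.76), the calnexin CNX1 (-0.72), the Hsp90 SHD (-0.65) and ERDJ3B (-0.52) were also called, with SDF2, PDIL1-1 and PDIL2-1 at -0.40 to -0.31.

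BIP3, BZIP60, CRT1, CRT3 and ERDJ3A did not pass, with differences from -0.23 to 1.3. The count of 9 was 0 without hira replicate 1 or 2, 1 without hira replicate 3 and 4 without asf1ab replicate 1. In the cytosolic heat shock list 1 of 13 members was called, HSP70 (-0.93). The cytosolic Hsp90 genes HSP81-2 (-0.71) and HSP81-3 (-0.51), which are close copies, were called outside that list.

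**Figure D3:**
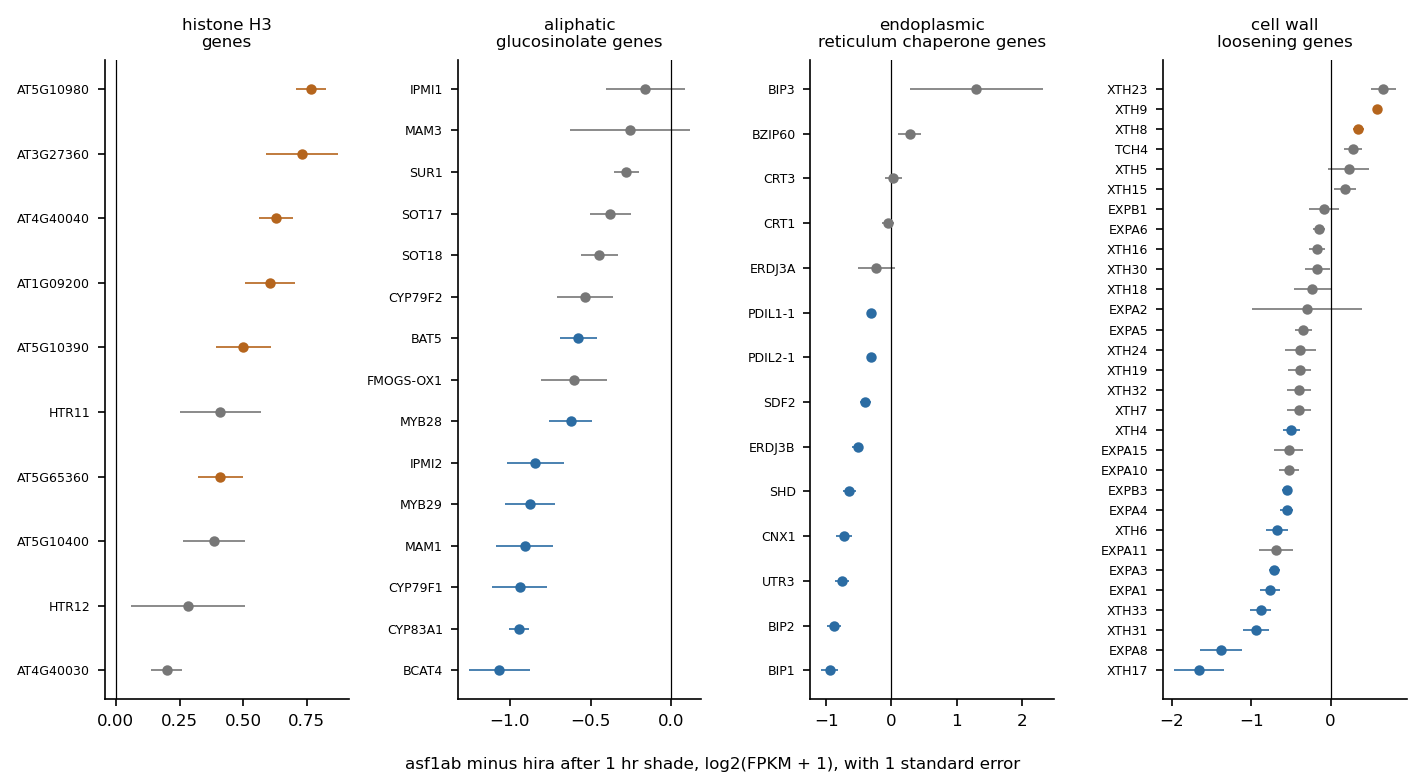
Difference between shaded asf1ab and hira for each tested member of 4 gene lists, with bars of 1 standard error, orange for calls higher in asf1ab, blue for calls higher in hira and grey for no call. All 10 H3 genes lie right of 0 and all 15 glucosinolate genes left of 0, while chaperone and cell wall genes lie on both sides.

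Growth genes that shade induces leaned toward hira, in part. Of 23 core shade-induced genes, 6 were called higher in hira and 2 higher in asf1ab, with a median of -0.22. IAA19, an auxin-response repressor, measured 78.5, 67.0 and 79.4 FPKM in asf1ab and 134, 118 and 140 in hira (-0.80, SE 0.10, limma adjusted p = 0.00901). YUC9, a flavin monooxygenase of auxin synthesis, measured 12.8, 12.3 and 10.6 FPKM against 18.4, 16.3 and 20.7 (-0.59, SE 0.11, limma adjusted p = 0.0284). CKX5, a cytokinin oxidase, went the other way at 27.3, 26.4 and 32.4 FPKM against 16.6, 16.4 and 16.5 (0.76, SE 0.09, limma adjusted p = 0.00761). ST2A (-0.78), PRE1 (-0.67), YUC2 (-0.44) and PAR2 (-0.40) were called higher in hira and PAR1 (0.55) higher in asf1ab. The count of 6 was 0 without hira replicate 1 or 3, 1 without hira replicate 2 or asf1ab replicate 2, 2 without asf1ab replicate 1 and 3 without asf1ab replicate 3.

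Among auxin synthesis and transport genes 6 of 18 were called, all higher in hira, with a median of -0.30. The influx carrier LAX3 measured 3.23, 2.70 and 3.34 FPKM against 5.79, 6.18 and 6.36 (-0.80, SE 0.10, limma adjusted p = 0.00980). The other calls were YUC9, YUC2, the efflux carriers PIN4 (-0.56) and ABCB1 (-0.30), and LAX2 (-0.54). The count was 0 without hira replicate 2 or 3, 1 without hira replicate 1 or asf1ab replicate 2 and 3 without asf1ab replicate 1 or 3.

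Of 32 Aux/IAA and GH3 genes 9 were called, all higher in hira, with a median of -0.18. GH3.6, which conjugates auxin to amino acids, measured 42.3, 43.2 and 45.4 FPKM against 76.1, 80.1 and 84.0 (-0.86, SE 0.06, limma adjusted p = 0.00161), with the hira libraries all well above. IAA6 (-0.80), IAA14 (-0.65) and GH3.17 (-0.50) were among the rest. After rescaling by the median of ratios the count was 5, and it was 1 to 4 without any one library other than asf1ab replicate 3. SAUR genes, early auxin targets that promote cell expansion, had 4 calls of 33, all higher in hira, led by SAUR9 (-1.16) and SAUR1 (-0.75). The SAUR median in shade was -0.08, near that of all genes, with 10 of 33 reading higher in asf1ab. In white light the SAUR median was 0.33, against 0.04 for all genes. There limma called none of 31, and 6 had an unadjusted p below 0.05, as did 2594 of all 18835 tested. The median difference between the lights was -0.46, against -0.08 for all genes. None of 33 was called for it, and 8 had an unadjusted p below 0.05, as did 1847 of all 18905 tested. SAUR genes form families of close copies, and the shade count of 4 was 1 without any one library other than asf1ab replicate 3.

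Cell wall genes encode the expansins and xyloglucan-modifying XTH enzymes that let walls yield. Of 30 tested, 10 were called higher in hira and 2, XTH8 and XTH9, higher in asf1ab, with a median of -0.39. XTH17 measured 4.8, 4.52 and 1.46 FPKM in asf1ab and 11.6, 13.1 and 12.9 in hira (-1.66, SE 0.31, limma adjusted p = 0.0308). EXPA8 measured 35.5, 21.8 and 48.6 FPKM against 80.1, 96.4 and 90.9 (-1.38, SE 0.26, limma adjusted p = 0.0300). Values in asf1ab were spread widely but stayed under every hira library, as for every gene called higher in hira. XTH31 (-0.94), XTH33 (-0.88), EXPA1 (-0.76) and EXPA3 (-0.71) followed. The count was 1 without hira replicate 3, 2 without hira replicate 1, 3 without hira replicate 2, 4 without asf1ab replicate 2 and 5 without asf1ab replicate 1.

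Brassinosteroid genes had 5 calls of 21, all higher in hira. PRE6, a growth-promoting atypical bHLH, measured 20.4, 20.6 and 23.3 FPKM against 46.8, 38.0 and 49.9 (-1.03, SE 0.11, limma adjusted p = 0.00607). The synthesis enzymes ROT3 (-0.97) and DWF4 (-0.55) and the factors BEE1 (-0.73) and PRE1 were the others. The count was 3 without any one hira library or asf1ab replicate 2. Gibberellin genes had 3 calls of 16, GASA6 (-0.89) and GA20OX1 (-0.75) higher in hira and GASA4 (0.50) higher in asf1ab. Ethylene genes had 1 of 17, ACS8 (-0.57), beside 6.98% of all tested genes called.

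**Figure D4:**
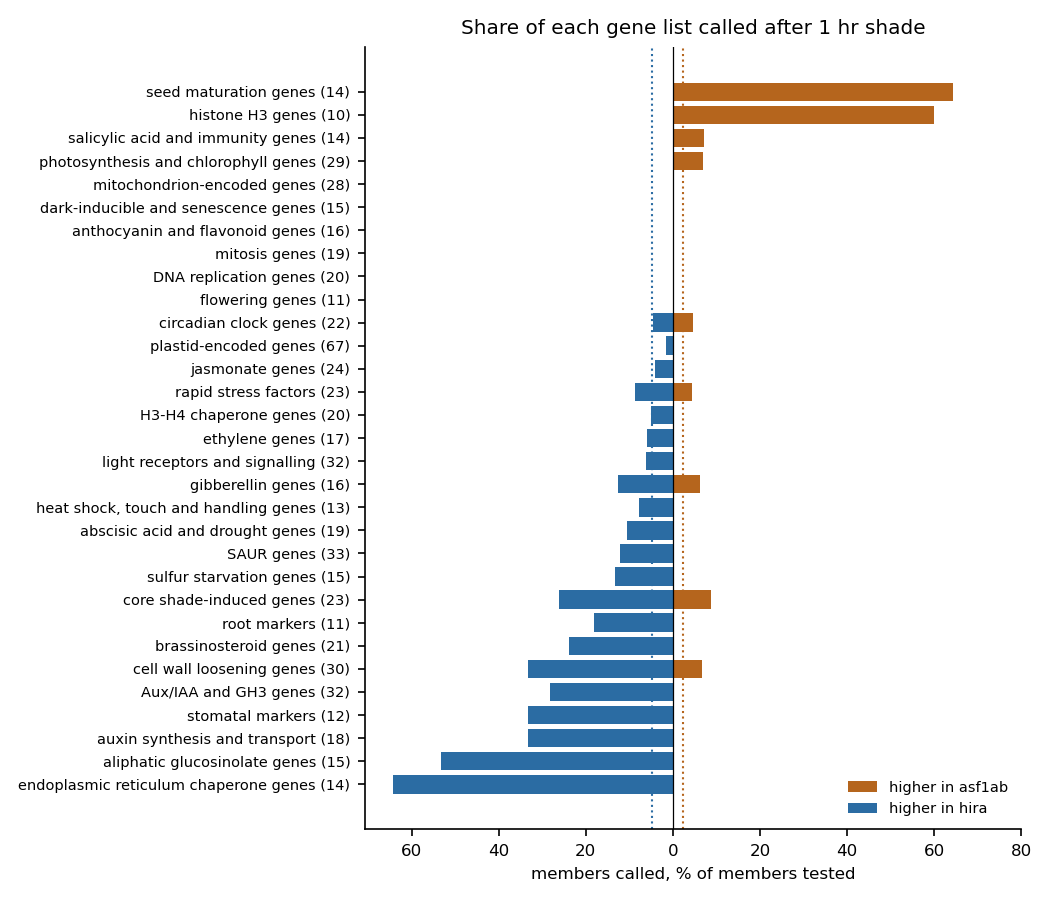
Share of tested members called in gene lists with at least 10 tested members, higher in hira to the left and higher in asf1ab to the right, with the number tested in brackets and dotted lines at the shares of all genes, 4.74% and 2.23%. Seed maturation and H3 genes stand out on the right and chaperone, glucosinolate and growth lists on the left.

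Tissue markers were examined as lists. Of 12 tested stomatal markers, 4 were called higher in hira: the receptor TMM (-0.65), the guard cell factor FAMA (-0.65), the potassium channel KAT1 (-0.57) and the kinase HT1 (-0.52). The 13 members summed to 73.4 to 88.3 FPKM in asf1ab and 104 to 111 in hira, and none was at 0. The count was 2 after rescaling by the median of ratios, 0 without any one hira library or asf1ab replicate 2 and 1 without asf1ab replicate 1. Root markers summed to 38.3 to 51.4 FPKM in asf1ab and 56.6 to 74.0 in hira, with 1 of 19 members at 0 in all asf1ab libraries and none in hira, and of 11 tested those called included CASP2 (-1.73), a gene of the Casparian strip. Of 9 tested shoot meristem markers KNAT1 (-0.91) and STM (-0.70) were called, but the list median was -0.08 and the summed levels overlapped, at 113 to 128 FPKM in asf1ab and 123 to 136 in hira. Summed photosynthesis genes gave 109048 to 120139 FPKM in asf1ab and 89993 to 95854 in hira. In white light these sums overlapped, at 111372 to 126810 FPKM in asf1ab and 94034 to 127183 in hira. The stomatal sums also overlapped there, at 81.2 to 92.6 FPKM in asf1ab and 84.1 to 97.9 in hira. The root sums did not, at 56.9 to 65.8 FPKM in asf1ab and 68.6 to 71.2 in hira. The part of tissue makeup in the other differences was not tested.

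The remaining lists are set beside the 6.98% of all tested genes that were called. Light signalling genes had 2 calls of 32, BBX31 (-0.92) and BBX32 (-0.56), and clock genes 2 of 22, PRR3 (-0.62) and CHE (0.39). RD22 (-1.32) and COR47 (-0.78) were called among 19 abscisic acid and drought genes, and ST2A alone among 24 jasmonate genes. By limma, flowering, flavonoid, dark-inducible and mitochondrion-encoded genes had no call, with 3 of 11, 6 of 16, 5 of 15 and 1 of 28 at an unadjusted p below 0.05. Of all 18808 tested genes, 4875 had such a p. The flavonoid list still had a median of -0.47, with 13 of 16 members reading higher in hira.

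Called genes were spread over the genome: 6.53 to 7.69% of the tested genes of each chromosome were called. Runs of at least 3 neighbouring tested genes called in one direction numbered 8 and held 25 genes. The longest, with 4 genes higher in hira, ran from HSP81-3 through AT5G56020 and HSP81-2 to AT5G56040 on chromosome 5. Others were the SESA1 to SESA3 stretch, the AT3G29631 stretch, and AT1G22885, AT1G22890 and AT1G22900 (-0.64, -0.91 and -0.66). Of the 20 tested genes nearest to ASF1B, 3 were called, AT5G37990 (-1.27), AT5G38005 (-1.49) and AT5G38020 (-0.67). Near HIRA 1 of 20 was called, AT3G44380 (-0.94), and near ASF1A none of 20 by limma.

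The same contrast in white light, in 6 other libraries, called 238 genes (1.26%), 98 higher in asf1ab (0.52%) and 140 higher in hira (0.743%). The white-light count was 106, 92 and 132 without asf1ab replicate 1, 2 or 3, and 84, 58 and 247 without hira replicate 1, 2 or 3. Of the 1281 genes called in shade that were also tested in white light, 1076 (84.0%) had the same sign there, against 59.4% of all tested genes. Of the 186 with at least 1 log2 unit in shade, 179 had the same sign and 73 were called. In all, 123 genes were called in both lights in the same direction, 51.7% of the calls in white light and 9.38% of those in shade. Ribosomal RNA took 3.22 to 8.32% of the summed FPKM in white-light hira and 1.25 to 1.86% in white-light asf1ab.

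**Figure D5:**
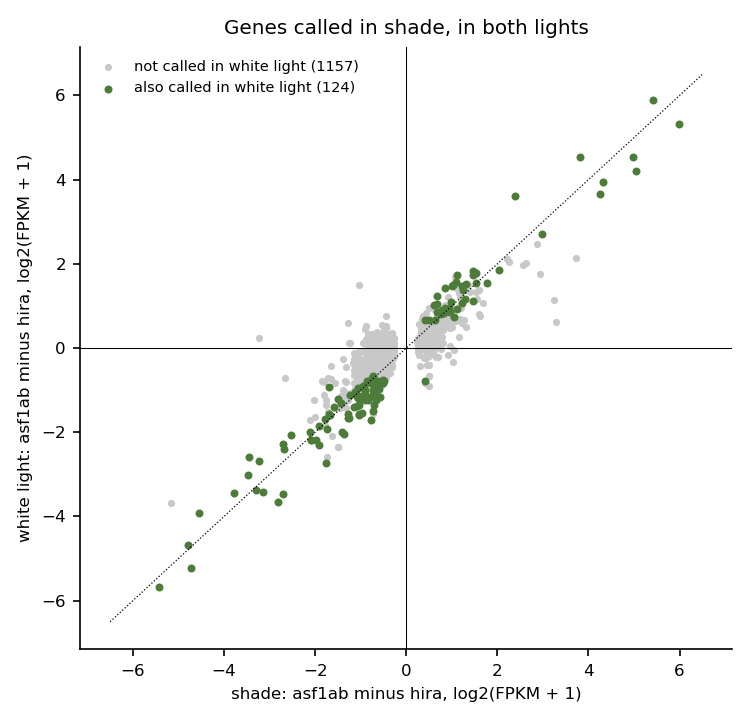
Difference between asf1ab and hira in white light against that in shade for the 1281 genes called in shade and tested in both, with the 124 also called in white light in green and a dotted line of equal values. Many of the green points lie near the line, while some large shade differences, such as AT5G14275 at -3.22 in shade and 0.23 in white light, lie far from it.

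Several of the large differences were also called without shade. SESA5 measured 21.5, 131 and 65.9 FPKM in white-light asf1ab and 0.63, 0.59 and 0.21 in hira (5.32, limma adjusted p = 0.0105), and 6 of 14 seed genes were called. AT5G10980 differed by 0.80 (limma adjusted p = 0.0297) and AT4G40040 by 0.66 (limma adjusted p = 0.0471), the 2 calls among the 10 listed H3 genes, and AT1G13370, outside the list, was also called (1.57). AT3G29639 (-4.68), MRD1 (-3.91) and ESM1 (-3.43) were called as well. AT5G14275 (0.23) and AT1G09333, both high in hira in shade, were not called in white light, and MIR8181 was not tested there. AT1G09333 still read higher in white-light hira, at 0, 41.5 and 47.9 FPKM against 0 in every asf1ab library (-3.67, SE 1.40, limma adjusted p = 0.317). Glucosinolate genes had no call in white light by limma, with 11 of 15 at an unadjusted p below 0.05 and a median of -0.63. Over all genes tested in white light, 2594 of 18835 had such a p.

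Endoplasmic reticulum chaperones read differently in the lights. Their median was -0.35 in shade and 0.21 in white light, where limma called none of 14 and none had an unadjusted p below 0.05. In white light 2594 of all 18835 tested genes had such a p. BIP1 measured 61.1, 59.1 and 67.9 FPKM in white-light asf1ab and 60.1, 42.2 and 75.2 in hira, with overlapping groups. The difference between the lights was not called for any of the 14 (BIP1 -1.06, SE 0.26, limma adjusted p = 0.293), and 9 had an unadjusted p below 0.05. For that difference 1847 of all 18905 tested genes had such a p. For EXPA8 the difference between the lights was -1.12 (SE 0.32, limma adjusted p = 0.360) and for IAA19 -0.45 (SE 0.35, limma adjusted p = 0.675).

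Tested over all 12 libraries, the difference between the mutants differed between the lights for 3 of 18905 genes (0.0159%). The count was 15 without white-light hira replicate 3, 11 without white-light asf1ab replicate 3, and 3 to 6 without any one of the other libraries. ERF6, a stress-responsive ethylene response factor, measured 7.16, 6.78 and 10.12 FPKM in shaded asf1ab and 6.56, 7.36 and 6.47 in shaded hira. In white light it measured 10.7, 13.2 and 11.0 FPKM in asf1ab and 38.5, 43.2 and 38.8 in hira (difference between the lights 1.90, SE 0.19, limma adjusted p = 0.00443). Its groups overlapped in shade and were far apart in white light. AT2G22880 was at 10.8, 17.1 and 10.05 FPKM in white-light hira, and was listed at 0 in all shaded libraries and in 2 of 3 of white-light asf1ab. AT5G19595 was at 7.17, 6.69 and 4.27 FPKM in white-light hira and listed at 0 in the other 9 libraries.

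ERF6 belongs to a list of rapid stress factors. In white light 11 of 25 members were called higher in hira, with a median of -1.10, and in shade 2 of 23 were called higher in hira and 1 higher in asf1ab, with a median of 0.10. ERF6 alone of them passed the test of the difference between the lights, with 15 of 25 at an unadjusted p below 0.05. Over all genes 1847 of 18905 had such a p in that test. ERF105 had the same direction in both lights, at 1.43, 0 and 0 FPKM in shaded asf1ab against 3.06, 6.14 and 5.83 in hira (-2.12, SE 0.40, limma adjusted p = 0.0300), and differed by -2.00 in white light.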

How the data were processed

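RNA was sequenced from whole seedlings, and the values used are the authors' deposited FPKM, written to 2 decimals. Per the submitters' processing notes, the tools were FastQC, cutadapt, STAR, HTSeq and DESeq2 with TAIR10. For the derivation of FPKM and of the assembled MSTRG loci, no method is stated in these sources. The members and the gene lists were chosen with earlier results of these data known.

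Values were transformed to log2(FPKM + 1), which understates changes of low genes. Genes with a mean of at least 1 FPKM over the libraries compared were tested with limma 3.58.1 in R 4.3.3 (group means, eBayes with a variance trend, Benjamini-Hochberg adjustment over all genes tested). Separate fits used the 6 shaded libraries, the 6 in white light, and all 12 for the difference between the lights.

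Named genes were the mutated genes; the 14 largest called differences each way with groups apart and a mean of at least 2 FPKM in the higher group; up to 6 loci each way listed at 0 in one group; called differences between the lights; up to 4 called members per list (the top member of a list with no call); and the 4 longest runs of neighbours, with ties broken by size after the data were seen. Other list members and neighbours given with values were chosen after their values were seen. Of 33020 loci, 32548 matched RefSeq TAIR10.1, which gave names, coordinates and upstream sequence, and 962 of 986 listed members matched a locus. One list and 1 gene are not reported here. The fit was tested on simulated data with the means and spreads of the shaded libraries. Changes were planted in a small share of genes, all toward asf1ab, with normal noise of equal spread in both groups. There were 9 false calls with 18807 genes fitted, a number that does not carry over to the calls in the data. The fit recovered 44% of changes of 0.5 log2 unit, 84% of 1, 94% of 2 and 98% of 3. A missing call at 0.5 log2 unit is therefore weak evidence of no difference. Alternatives covered scaling, pseudocount, filters, variance trend, replicate block, all 24 libraries, a threshold of 1 log2 unit and each library left out.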

Additional observations from a re-analysis of the deposited data

Results flagged for a closer look

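The genes AT2G22880, AT5G19595 and ERF6 stood out because the difference between asf1ab and hira itself differed between shade and white light in the limma fit over 12 libraries. The difference between the lights was 3.68 log2 units for AT2G22880, 2.79 for AT5G19595 and 1.90 for ERF6, with the higher values in white-light hira in each case. AT2G22880 and AT5G19595 are listed at 0 in all 6 shaded libraries, so their fitted values depend on the pseudocount and are no bound. White-light hira had the highest ribosomal RNA shares of the 4 mutant groups. Rescaled to the same nuclear sum without ribosomal RNA, the fit again called 3 genes, and AT2G22880, AT5G19595 and ERF6 each passed in it. Ribosomal RNA took at most 8.32% of a library, so this rescaling shifts values little beside these differences. The part of ribosomal RNA in them was not tested.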

How the results depend on the processing

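Same-numbered shaded libraries did not deviate together (correlations of -0.03, -0.05 and 0.02). In white light the same-number correlations were 0.12, 0.02 and 0.33, against -0.28 to 0.18 for other numbers. With 3 libraries a group, these values cannot settle whether the numbers pair the libraries. A fit with the replicate number as a block called 260 genes in shade, 181 in white light and 6 for the difference between the lights. Requiring 1 log2 unit left 200 genes in shade. In white light 134 genes were called at a mean of at least 5 FPKM and 1167 with all 24 libraries in the fit. For the difference between the lights the count was 9 after quantile normalization, 1 with a pseudocount of 0.1, 16 with a pseudocount of 5, 1 at a mean of at least 5 FPKM, 9 with no filter and 13 with all 24 libraries. Aux/IAA and GH3 calls were 5, and stomatal calls 2, after rescaling by the median of ratios. The cause was not tested.

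Leaving out 1 library at a time gave 184 to 1389 calls in shade, 58 to 247 in white light and 3 to 15 for the difference between the lights. Added after seeing the data, the same for lists gave 5 to 11 seed, 2 to 7 H3, 1 to 10 cell wall, 0 to 3 auxin synthesis and transport, 1 to 9 Aux/IAA and GH3, 0 to 8 chaperone, 1 to 6 glucosinolate, 0 to 3 core shade, 3 to 5 brassinosteroid, 1 to 4 SAUR and 0 to 3 stomatal calls. Of 99 called named genes, 35 passed under every alternative that tested them, leaving aside the threshold of 1 log2 unit. Some of these, such as NSP2, fell under the filter of 5 FPKM and were not tested there. None of 119 named genes changed sign. All called genes had groups that did not overlap, so leaving out 1 library could not turn their sign. With 3 libraries a group and FPKM in place of counts, small differences and short loci are the least certain.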
